A study of Mus musculus with 16 samples.

Results

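The genes described here are 36 markers and effectors of fibroblasts, pancreatic stellate cells, pericytes and smooth muscle cells, given as a list of names. Of these, 35 had a value among the 15156 genes of the expression table, and Il6, an inflammatory cytokine of activated fibroblasts, was not analysed here. A filter on low values, at least 10 normalized counts in at least 4 of the 16 libraries, kept 34 of the 35 and left out S100a4, a calcium-binding protein of motile mesenchymal cells. The RNA came from whole pancreas of adult mice aged 6 to 10 weeks, with 4 mice in each of 4 genotypes. They were wild type (WT), Daxx fl/fl Pdx1-Cre (DC), Men1 fl/fl Pdx1-Cre (MC) and Daxx fl/fl Men1 fl/fl Pdx1-Cre (DMC). Every mouse in every group had received caerulein, a peptide related to cholecystokinin that drives acinar cells to oversecrete, at 50 ug/kg per injection, as 4 hourly intraperitoneal injections on 3 days a week for 3 weeks. Tissue was taken 5 days after the last injection, so all values describe a pancreas shortly after repeated injury, and a pancreas without caerulein was not analysed here. Daxx encodes a chaperone of a histone H3 variant, and Men1 encodes menin, a scaffold of histone methyltransferase complexes. Pdx1-Cre recombines in the epithelial lineage of the pancreas and of neighbouring foregut, not in its mesenchyme, so the genes described here are read mostly in cells that the Cre is not known to target. The WT label names no Cre, and the effect of the transgene itself cannot be told apart from that of the floxed alleles.

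In the healthy pancreas, stellate cells and fibroblasts are sparse and quiescent, and adventitial fibroblasts surround vessels and ducts. After acinar injury, transforming growth factor beta and platelet-derived growth factors act on these cells, which divide, lay down matrix and may take on contractile proteins as myofibroblasts. The same contractile proteins are held permanently by the smooth muscle of vessel and duct walls, so in whole tissue an alpha smooth muscle actin transcript may come from either cell. In whole tissue RNA, more cells of a type and more RNA per cell cannot be told apart.

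Reads recovered over the 15156 genes with a value came to 13481063 to 23728309 per library, which leaves out reads outside these genes. Of the recovered reads, 33.5% to 51.8% fell on only 10 genes. Men1, in normalized counts (SD, n = 4), was 368 ± 61.3 (WT), 482 ± 61.9 (DC), 132 ± 13.3 (MC) and 168 ± 10.6 (DMC), lower in both groups with floxed Men1. Daxx was 263 ± 64.97, 223 ± 15.6, 246 ± 26.1 and 182 ± 30.4 in the same order. All 4 DC libraries lay within the WT range of Daxx, and the counts cover the whole gene, including exons that a deletion may leave. Markers of acinar cells were the highest of the cell type lists, at a mean log2(normalized count + 1) of 15.55 to 17.27 per library. Fibroblast RNA was read in every library, with the collagen gene Col1a1 at 1243 to 5160.5 normalized counts and decorin (Dcn) at 4598 to 17231. Library DC 1 stood apart. Its acinar level of 15.55 was the lowest of the 16, and its endothelial (8.60), lymphatic (9.20) and mesothelial (8.35) levels were the highest. B and T cell genes were high in WT 2 (7.94) and WT 3 (8.68), and gastric gland genes lay at 8.94 to 11.50 in MC and DMC against 4.80 to 6.67 in WT and DC. The part of these libraries and of these other cells in the results below was not tested, except where a value without them is given.

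None of the 34 tested genes passed an adjusted p of 0.05 (limma, Benjamini-Hochberg adjustment over 14220 genes) in any comparison between genotypes. Their background was low as well: 0.0211% of all genes tested passed in DC against WT, 0.781% in MC against WT and 0.788% in DMC against WT. At an unadjusted p under 0.05, 9 members passed in DC against WT, 5 in MC against WT and 4 in DMC against WT, each of them on the higher side. These are 26.5%, 14.7% and 11.8% of the 34, against 7.47%, 7.51% and 8.43% of all genes tested on that side. The members were chosen with earlier results of these data known, so these shares are a description and not a test. edgeR on the recovered reads called no member in these comparisons, and 0.0211%, 0.781% and 0.717% of all genes. DESeq2, which called 1.99%, 2.75% and 2.33% of all genes, called Igfbp5, Mfap4, Mfap5 and Pdgfra in DC, Ly6c1 and Pdgfa in MC, and Igfbp5 in DMC, all 7 of these calls higher than in WT.

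Most members lay above WT in the libraries with a deletion, by small amounts. The log2 difference was above 0 for 30 of 34 members in DC, 23 in MC and 31 in DMC, with medians of 0.42, 0.21 and 0.41. Over all genes tested, 47.3%, 47.1% and 47.3% were above 0, with medians of -0.02, -0.02 and -0.02. Genes of other cell types lay apart from WT as well. Of 11 acinar genes, 0, 1 and 0 lay above WT in DC, MC and DMC (medians -0.59, -0.25 and -0.49). All 9 macrophage genes and all 4 lymphatic genes lay above WT in each comparison, with macrophage medians of 0.27, 0.45 and 0.46 and lymphatic medians of 0.76, 0.54 and 0.53. Of 10 mesothelial genes, 9, 8 and 10 did (medians 0.55, 0.26 and 0.89), and 7 of the 10 had an unadjusted p under 0.05 in DMC. Of 9 B and T cell genes none did, with medians of -1.29, -1.38 and -1.07. None of these genes passed the adjusted test, and their part in the shift of the members was not tested. Reln stands on the lymphatic list and also on that of the other fibroblast and stellate genes given below. Without DC 1 the DC median of the 34 members was 0.23, and without DC 4 it was 0.65. The MC median was 0.06 without MC 4, 0.12 without MC 3, 0.34 without MC 1, 0.32 without MC 2 and 0.13 without WT 2 and WT 3. The comparisons share the same 4 WT libraries, so their directions are not independent of each other, and the genes of one tissue are not independent of each other either.

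**Figure D1:**
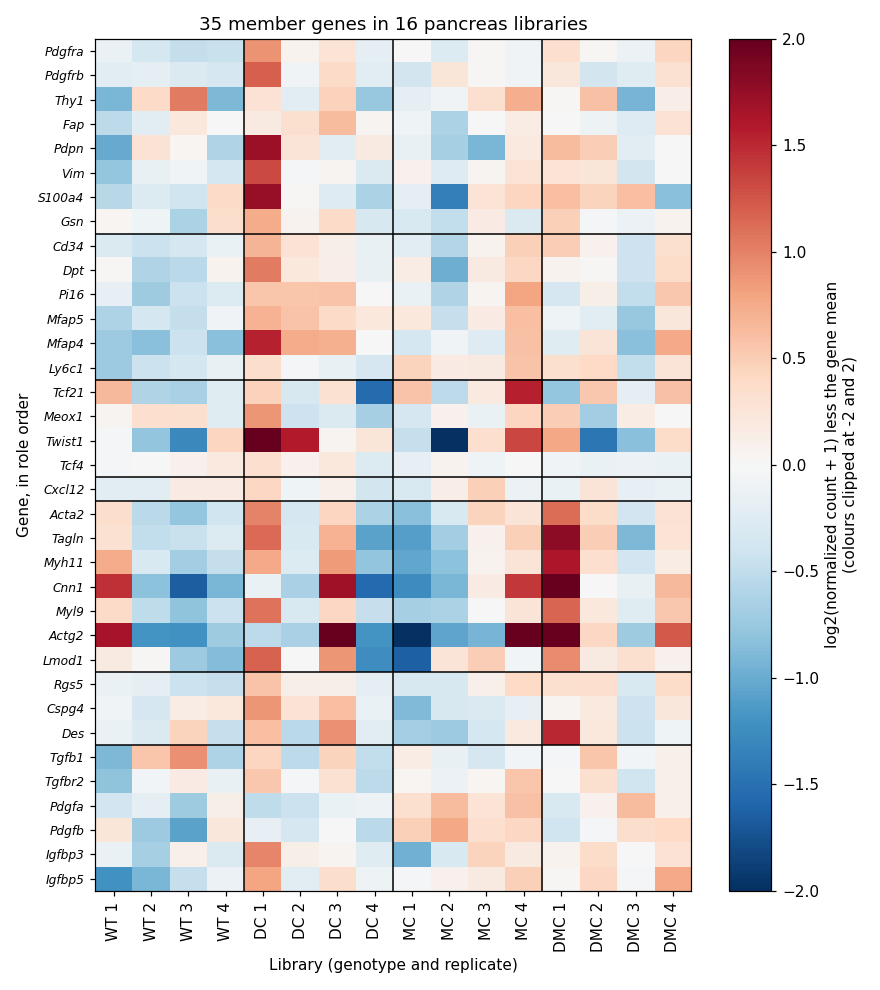
Each row is 1 of the 35 genes with a value, in role order, and each column 1 of the 16 libraries. Colour gives log2(normalized count + 1) less the mean of that gene, with colours held at -2 and 2. DC 1 is red for most fibroblast genes, and the contractile block from Acta2 to Lmod1 is mostly red in DMC 1 and blue in DC 4 and MC 1.

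**Figure D2:**
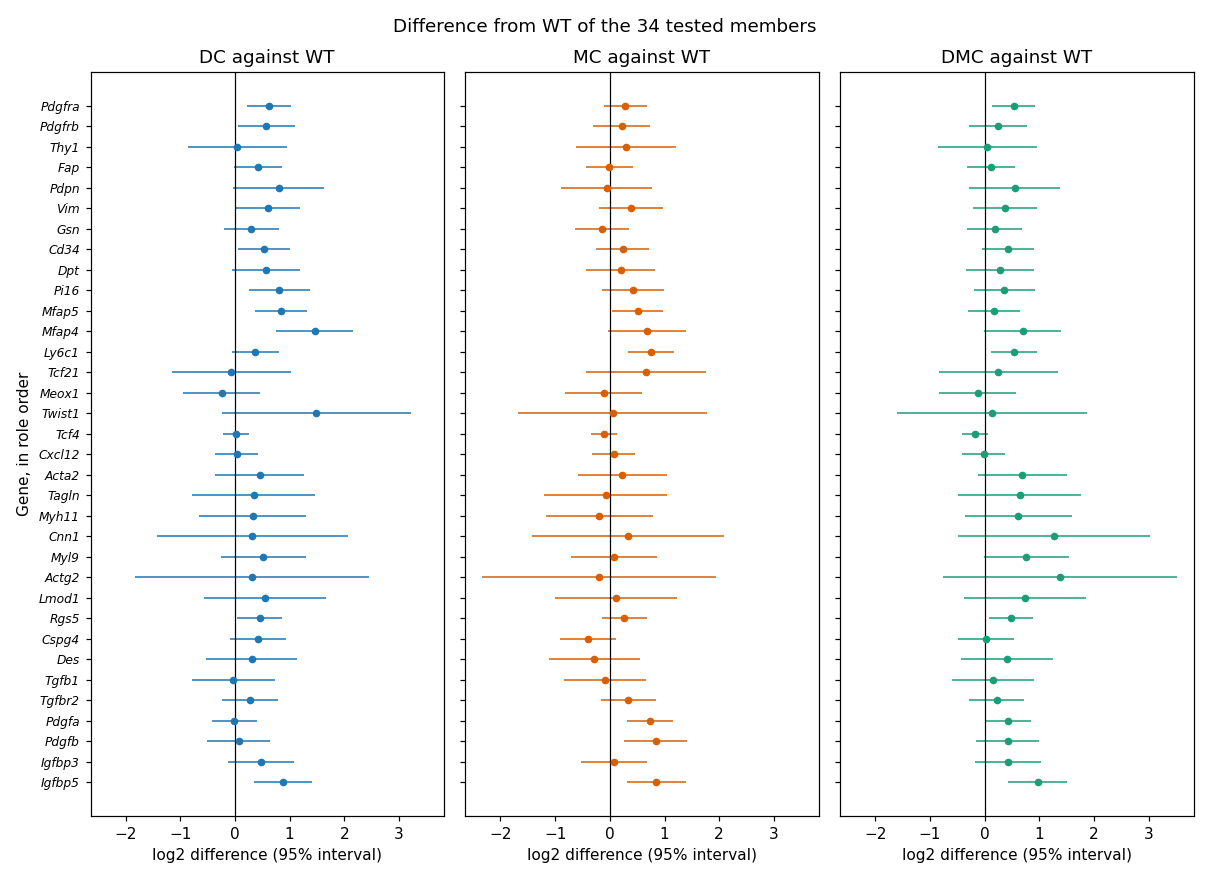
Points give the log2 difference from WT of the 34 tested genes in DC, MC and DMC, with lines for the 95% interval of the limma fit and a black line at 0. Most points lie to the right of 0 in DC and DMC, and the intervals of Actg2, Cnn1 and Twist1 are the widest.

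Among the 8 genes of fibroblast and stellate identity, the platelet-derived growth factor receptors lay above WT in DC without passing the test. Pdgfra, the receptor that marks most tissue fibroblasts (ENSMUSG00000029231.15, chromosome 5, 75152292 to 75198215, GRCm38), stood at 1137, 979, 896 and 916 normalized counts in WT 1 to 4 and at 2334, 1321, 1517 and 1103 in DC 1 to 4. It was 1258, 1038, 1271 and 1192 in MC and 1587, 1267, 1157 and 1686 in DMC. Every DMC library lay above every WT library, while DC 4 lay below WT 1 and DC 1 was the highest of all. The log2 difference from WT was 0.62 ± 0.19 (SE, limma) in DC, with an adjusted p of 0.2, and 0.41 when DC 1 was left out. In DMC it was 0.53 ± 0.19, with an adjusted p of 0.246. The 4 WT libraries of Pdgfra were close to each other, at 982 ± 109 normalized counts.

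Pdgfrb, the receptor of stellate cells and pericytes, was 299, 309, 287 and 278 in WT, 804, 332, 455 and 300.5 in DC, 271, 416, 355 and 334 in MC and 412, 272, 295 and 431 in DMC. Outside DC 1 its libraries overlapped across the 4 groups. Its log2 difference was 0.57 ± 0.25 in DC, 0.21 in MC and 0.24 in DMC. Vim, the intermediate filament of mesenchymal cells, was 1299, 1994, 2102 and 1731 in WT, 5549.8, 2156, 2309.6 and 1817 in DC, 2354, 1851, 2304 and 2693 in MC and 2677, 2612, 1714 and 2241 in DMC. Here too DC 1 was far above the others, WT 1 was the lowest, and the groups overlapped. The DC difference of Vim was 0.60 ± 0.28 on the log2 scale.

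The remaining members of this role gave differences that were smaller, or that rested on few libraries. Gsn, the actin-severing protein gelsolin, was the most abundant member per length, at 2773 normalized counts per kb of exon in WT, against 603 for Dpt, 376 for Vim and 2.66 for Twist1, the lowest tested member. It ranged over 5812 to 11485 normalized counts in WT and over 6447 to 15065 in the others. Thy1, a surface glycoprotein of fibroblasts and T cells, ranged over 68.9 to 270.1 in WT, where WT 2 and WT 3 were the highest, as they were for the B and T cell genes. Its log2 difference was 0.04, 0.29 and 0.05 in DC, MC and DMC. Fap, the protease of activated fibroblasts, ranged over 63.5 to 154 in all 16 libraries, with log2 differences of 0.43, -0.01 and 0.11. Pdpn, podoplanin of fibroblasts, mesothelium and lymphatic vessels, was 308, 113, 79.8 and 107 in DC and 45.97 to 147 in the 3 other groups, and DC 1 was also the library with the highest lymphatic and mesothelial levels. Its log2 difference was 0.80 ± 0.39 in DC, -0.06 in MC and 0.55 ± 0.39 in DMC, the largest of the tested members of this role in DC and DMC, with adjusted p of 0.452 and 0.591 (limma). S100a4 ranged over 1.59 to 21.4 normalized counts, of which 3 reads are worth 1.84 to 5.30 depending on the library, and no fold is given for it.

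The 6 adventitial fibroblast genes held the 3 members whose DC libraries did not overlap WT, though none passed the adjusted test. All 6 had positive log2 differences in each of the 3 comparisons with WT, with medians of 0.69 in DC, 0.47 in MC and 0.39 in DMC. Within DC, DC 1 was the highest library for 5 of the 6 genes and DC 4 the lowest for all 6. Without MC 4 the MC median was 0.26, and the DMC median was 0.26 without DMC 4 and 0.26 without WT 2 and WT 3. Mfap4, a microfibril-associated protein of elastic fibres (ENSMUSG00000042436.12, chromosome 11, 61485431 to 61488900), was 74.3, 68.7, 91.4 and 69.2 normalized counts in WT, 362, 208, 203 and 124 in DC, 96.8, 117, 103 and 186 in MC and 105, 148, 69.2 and 209 in DMC. The lowest DC and the lowest MC library each lay above the highest WT library, and the DMC libraries overlapped WT through DMC 3. The mean went from 75.9 ± 10.6 in WT to 224 ± 99.6 in DC, a log2 difference of 1.46 ± 0.33 with an adjusted p of 0.117 by limma. Over the alternatives tried, that adjusted p ranged from 0.00439 to 0.322. An exon of Mfap4 overlaps one of Mapk7 on the opposite strand, and whether the counting used strand is not given in the sources used here.

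Mfap5, a related microfibril protein of adventitial fibroblasts, was 235, 284, 259 and 344 in WT, 586, 534, 472 and 418 in DC, 418, 262, 405 and 546 in MC and 339, 309, 214 and 422 in DMC. Pi16, a peptidase inhibitor that marks the adventitial fibroblast state found across organs, was 451, 308, 375 and 419 in WT, 744, 745, 753 and 503 in DC, 462, 335, 527 and 876 in MC and 403, 551, 361 and 741 in DMC. For both genes every DC library lay above every WT library, while MC and DMC overlapped WT. The log2 difference in DC was 0.84 ± 0.22 for Mfap5 and 0.81 ± 0.26 for Pi16, with adjusted p of 0.152 and 0.248 (limma). In MC that of Mfap5 was 0.51 ± 0.22, with an adjusted p of 0.345. Groups without overlap on the higher side were thus found for 3 members in DC against WT, Pi16, Mfap5 and Mfap4, against 3.72% of all genes tested.

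Dpt, dermatopontin, a matrix protein of the same fibroblast state, was 1241, 804, 835 and 1281 in WT, 2509.6, 1404, 1339 and 1096 in DC, 1344, 621, 1374 and 1616 in MC and 1285, 1241, 917 and 1567 in DMC, so the groups overlapped. Cd34, a sialomucin of adventitial fibroblasts and of endothelium, was 969, 879.7, 933 and 1073 in WT, 1894, 1440.2, 1285 and 1059 in DC, 1015, 789, 1241 and 1633 in MC and 1658, 1252, 889.6 and 1474 in DMC. Its lowest DC library, DC 4, lay just under WT 4, the highest WT library. Ly6c1, a surface protein of endothelium and of some fibroblasts, whose reads may be shared with its near copy Ly6c2, was 129, 159, 168 and 193 in WT and 293, 239.7, 243 and 318 in MC. It was 275, 211, 193 and 169 in DC and 267, 284, 153 and 256 in DMC. Every MC library lay above every WT library, and in DMC 3 of the 4 did. The log2 difference in MC was 0.75 ± 0.20, with an adjusted p of 0.0991 by limma and a range of 0.0243 to 0.29 over the alternatives. In DMC it was 0.54 ± 0.20, with an adjusted p of 0.276, and 0.33 without DMC 2 and DMC 4.

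**Figure D3:**
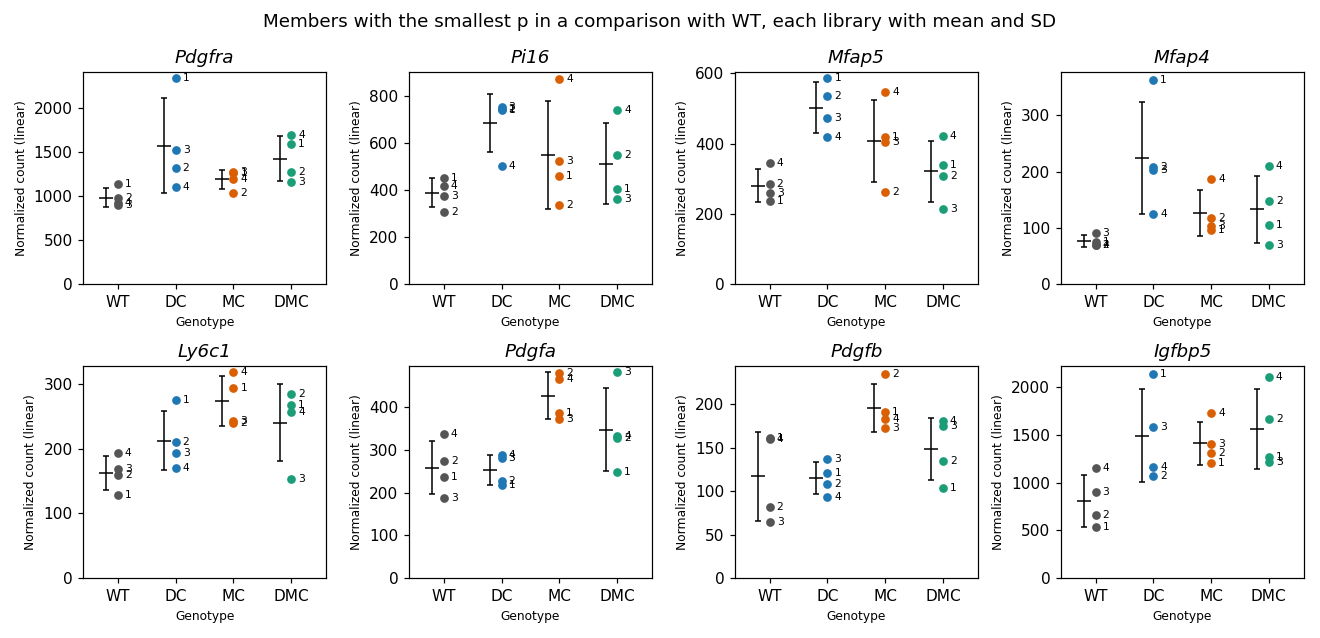
Normalized counts on a linear axis from 0 for 8 genes with small p in a comparison with WT. Each point is 1 library with its replicate number, and the bar to its left gives the mean and SD of 4. Pi16, Mfap5 and Mfap4 separate DC from WT, while Pdgfa and Pdgfb separate MC from both WT and DC.

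The mesenchymal transcription factors and the chemokine gave small or poorly determined differences. Tcf21, a factor of quiescent stellate cells and fibroblasts, was 33.6, 13.6, 13.1 and 17.6 in WT, 29.4, 16.6, 26.2 and 6.60 in DC, 31.9, 14.3, 24.3 and 63.8 in MC and 11.8, 31.1, 18.3 and 31.98 in DMC. Both the lowest value (DC 4) and the highest (MC 4) lay in groups that otherwise overlapped WT. Meox1, a homeobox factor of fibroblast activation, was 40.7, 49.7, 48.95 and 32.9 in WT, 72.8, 29.04, 31.9 and 24.2 in DC, 30.6, 41.3, 35.4 and 52.95 in MC and 55.6, 23.7, 43.1 and 39.3 in DMC, with log2 differences of -0.24, -0.11 and -0.13. Twist1, a factor of mesenchymal identity, ranged over 0 to 33.1 normalized counts. Its values over 15 were those of DC 1, DC 2 and MC 4, and it was 0 in MC 2, where 3 reads are worth 4.76 normalized counts. Its log2 difference in DC of 1.49 had a 95% interval of -0.24 to 3.23. Tcf4, a widely expressed E protein, ranged over 1116 to 1309 in WT and 1036 to 1086 in DMC. It was the 1 member whose DMC libraries all lay below WT, against 3.02% of all genes, and its log2 difference was -0.18 ± 0.11. Cxcl12, the chemokine of perivascular stroma, was 369, 369, 479 and 475 in WT, 566, 402, 456 and 330.2 in DC, 344, 465, 594 and 393 in MC and 388, 508, 381 and 389 in DMC. Its log2 difference from WT was 0.04 in DC, with a 95% interval of -0.36 to 0.43, 0.07 in MC and -0.02 in DMC.

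The 7 contractile genes varied widely between mice of one genotype. The pooled SD within groups on the log2 scale had a median of 0.80 over the 7, from 0.58 to 1.61, against 0.41 over the 17 tested fibroblast genes and 0.28 over all genes tested. For 3 of the 7 it lay above the 90th percentile of all genes, which was 0.80. Over 22 other smooth muscle genes the median was 0.39, with 2 of the 22 above that percentile. The wide spread was thus not a trait of smooth muscle genes at large. Cnn1 and Actg2, the widest of the 7, had as few as 8 and 3 reads in their lowest libraries. None of the 7 passed the adjusted threshold, none passed an unadjusted p under 0.05 in DC, MC or DMC against WT, and none separated those groups.

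Acta2, alpha smooth muscle actin (ENSMUSG00000035783.8, chromosome 19, 34241090 to 34255590), was 371, 199, 169 and 219.6 normalized counts in WT, 577, 231, 391 and 186 in DC, 162, 235, 394 and 347 in MC and 629, 375, 222 and 354 in DMC. WT 1 lay above 2 of the 4 libraries in each of DC and DMC, and above 3 of the 4 in MC. The log2 difference was 0.45 ± 0.38 in DC, 0.23 ± 0.38 in MC and 0.69 ± 0.38 in DMC, the last with an unadjusted p of 0.0936. Tagln, the actin-binding protein transgelin, was 209, 120.2, 124 and 141 in WT, 373, 138, 276 and 80.3 in DC, 78.4, 105, 181 and 236 in MC and 591, 239, 90.1 and 206 in DMC. Myh11, the smooth muscle myosin heavy chain, was 667, 324, 246 and 285 in WT, 679, 330.2, 724 and 230.0 in DC, 195, 227, 419 and 477 in MC and 1234, 503, 306 and 442 in DMC. In both genes DMC 1 was the highest of the 16 libraries, with MC 1 the lowest, and every group overlapped every other. Reads of Acta2 and Actg2 may be shared with the other, nearly identical actin genes, and an exon of Tagln overlaps Pcsk7 on the opposite strand.

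Cnn1, the actin-binding protein calponin of differentiated smooth muscle, was 77.8, 15.4, 8.16 and 14.3 in WT, 25.1, 17.4, 92.3 and 8.80 in DC, 11.03, 14.3, 31.3 and 75.4 in MC and 182, 27.7, 24.8 and 43.9 in DMC. Actg2, the gamma actin best known from visceral smooth muscle, was 77.8, 9.95, 9.79 and 14.3 in WT, 16.5, 14.9, 108 and 9.91 in DC, 3.68, 11.1, 12.1 and 107 in MC and 216, 32.5, 14.4 and 57.6 in DMC. One library in each group was far above its neighbours for both genes: WT 1, DC 3, MC 4 and DMC 1. In DC that library differed from the one highest in Acta2, Tagln, Myl9 and Lmod1, which was DC 1, and Actg2 in DC 1 was 16.5 normalized counts. Markers of interstitial cells of Cajal and enteric neurons, which accompany visceral muscle, had levels of 5.68, 5.51, 6.51 and 6.65 in these 4 libraries, within a range of 5.31 to 6.77 over the 16 libraries, and their part in the spread was not tested. The log2 difference of Actg2 in DMC was 1.38 ± 1.01, with a 95% interval of -0.76 to 3.52.

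Myl9, the regulatory light chain of smooth muscle myosin, had ranges of 100.4 to 229.8 normalized counts for WT, 127 to 375 for DC, 110.3 to 210.4 for MC and 148 to 396 for DMC. Lmod1, the actin filament nucleator leiomodin, ranged over 7.35 to 57.5 in the 16 libraries. The 7 genes shared several of their highest and lowest libraries. WT 1 was the highest WT library for 7 of 7 and DMC 1 the highest DMC library for 7 of 7, while DC 4 and MC 1 were the lowest of their groups for 7 of 7. The 22 other smooth muscle genes shared them less. Of these, WT 1 was the highest WT library for 8 and the lowest for 5, and DMC 1 the highest DMC library for 14. DC 4 was the lowest DC library for 16, and MC 1 the lowest MC library for 11 and the highest for 4. The median log2 difference over the 7 was 0.34 in DC, 0.08 in MC and 0.73 in DMC, with 7, 4 and 7 of the 7 above 0. Single mice moved these medians. In DC the median was 0.15 without DC 3, 0.22 without DC 1, 0.74 without DC 4, 0.73 without WT 1 and 0.10 without WT 2 and WT 3. In MC its sign was not stable, from -0.19 without MC 4 to 0.41 without MC 1. In DMC it was 0.51 without DMC 1 and 0.45 without WT 2 and WT 3.

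**Figure D4:**
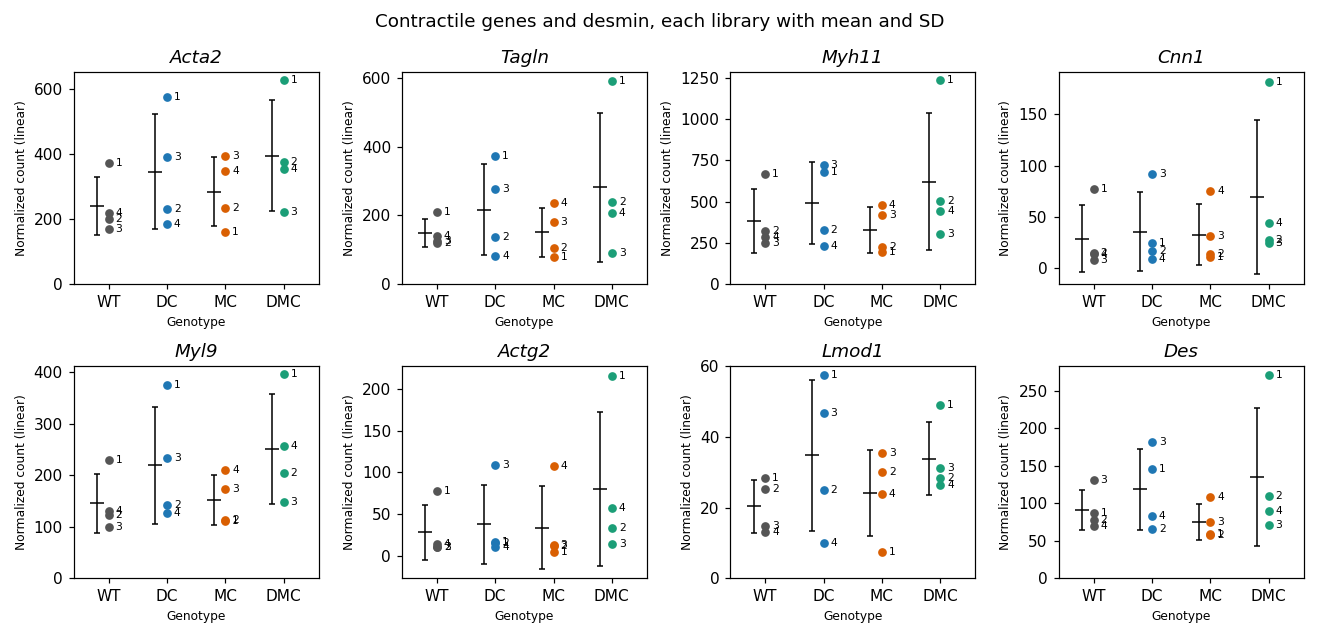
Normalized counts on a linear axis for the 7 contractile genes and Des. Each point is 1 library with its replicate number, and the bar to its left gives the mean and SD of 4, which can reach below 0. DMC 1 is the highest DMC library in all 8 panels, and WT 1 the highest WT library in all but Des.

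Contractile genes are known targets of serum response factor, which binds the CArG box, a run of CC, 6 bases that are each A or T, and GG. Because the contractile genes shared these libraries, the 250 bases before the RefSeq start sites (GRCm38.p6) were searched on both strands, which match together as the box is its own reverse complement in form. Windows were found for 25 of the 36 members and 4 of the 7 contractile genes, Acta2, Cnn1, Myl9 and Lmod1. The strict box occurred in 1.62% of the 27025 genes with a window and in 1 member, Myl9. With 1 mismatch allowed it occurred in 9.78% of genes and in 4 members, Acta2, Myl9, Gsn and Tgfbr2. A match describes the letters of the window and is not a measured site. The matches of the 2 contractile genes, of which 1 is strict and 3 have 1 mismatch, are printed 5′ to 3′ on the strand of the gene, with the matched stretch in capitals and 10 bases on either side, to show what the search found.
Acta2, chr19:34255438-34255467, minus strand, match starting 84 bases before the RefSeq start, 1 mismatch: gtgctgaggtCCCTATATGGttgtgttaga
Acta2, chr19:34255388-34255417, minus strand, match starting 34 bases before the start, 1 mismatch: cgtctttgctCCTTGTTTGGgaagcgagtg
Myl9, chr2:156775293-156775322, plus strand, match starting 161 bases before the start, strict: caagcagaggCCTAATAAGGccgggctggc
Myl9, chr2:156775355-156775384, plus strand, match starting 99 bases before the start, 1 mismatch: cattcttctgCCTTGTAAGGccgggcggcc
Both Acta2 matches lie within an exon of Acta2 in the GENCODE annotation, which has a start further upstream. The Myl9 matches lie in no annotated exon of Myl9, and exons of other genes were not checked.

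The 3 pericyte and muscle filament genes did not separate a deletion group from WT. Rgs5, a regulator of G protein signalling that marks pericytes, was 1110.3, 1079.5, 904 and 883 in WT, 1800.2, 1319.9, 1314 and 1074 in DC, 975, 972, 1301 and 1603 in MC and 1516, 1542, 990.2 and 1573 in DMC. In DMC 3 of the 4 libraries lay above WT, and the log2 difference was 0.48 ± 0.19 with an adjusted p of 0.309 by limma, and 0.31 without DMC 2 and DMC 4. It was 0.45 in DC and 0.26 in MC. Cspg4, the proteoglycan NG2 of pericytes, was 56.6, 47.01, 66.1 and 69.2 in WT, 110.2, 73.01, 91.2 and 53.9 in DC, 31.9, 47.6, 48.5 and 52.95 in MC and 61.9, 68.3, 44.4 and 69.4 in DMC. Its MC libraries lay below every DC library, though DC 4 and MC 4 were close, and the log2 difference of MC from DC was -0.82 ± 0.24 with an adjusted p of 0.119. Des, desmin, the filament of quiescent stellate cells and of muscle, was 86.6, 77.8, 131 and 69.2 in WT, 146, 65.5, 181 and 82.5 in DC, 58.8, 57.1, 74.8 and 109 in MC and 271, 110.3, 70.5 and 89.6 in DMC. Desmin was highest in DMC 1 and DC 3, and DMC 1 was also the highest library for Acta2, Tagln, Myh11, Cnn1, Myl9 and Actg2.

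Among ligands, the 2 platelet-derived growth factor chains lay higher in MC than in WT or DC. Pdgfa, the ligand of Pdgfra, which epithelium among other cells makes (ENSMUSG00000025856.15, chromosome 5, 138976014 to 138997370), was 237, 273, 188 and 336 in WT, 217, 228, 280.3 and 287 in DC, 385, 479, 373 and 466 in MC and 249, 327, 481 and 333 in DMC. Every MC library lay above every WT and every DC library, and the DMC libraries spread over both ranges. The mean was 258 ± 62.5 in WT and 426 ± 54.8 in MC, a log2 difference of 0.74 ± 0.20 with an adjusted p of 0.0963 by limma, which ranged from 0.0307 to 0.313 over the alternatives. In DMC the difference was 0.42 ± 0.20, with an adjusted p of 0.4, and it was 0.25 without DMC 3 and 0.27 without WT 3. Pdgfb, the ligand of Pdgfrb, made by endothelium and platelets, was 161, 82.3, 64.5 and 160.3 in WT, 121, 108, 137 and 93.5 in DC, 191, 235, 173 and 183 in MC and 104, 135, 175 and 180.0 in DMC. The MC libraries again lay above every WT and DC library, while WT split into 2 high and 2 low libraries, WT 2 and WT 3 being low. Its log2 difference in MC of 0.84 ± 0.27 (adjusted p = 0.184, limma) was 0.27 without WT 2 and WT 3. In MC the receptor genes differed from WT by 0.28 (Pdgfra) and 0.21 (Pdgfrb) on the log2 scale, which are smaller values than those of their ligands. Receptor was not tested against ligand, and the 95% intervals of each pair overlapped. Groups without overlap in MC against WT were found for 5 members, Mfap4, Ly6c1, Pdgfa, Pdgfb and Igfbp5, all higher, against 4.16% of all genes.

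Tgfb1, the ligand that activates stellate cells, was 44.2, 122, 157 and 53.8 in WT, 112, 57.2, 113 and 58.3 in DC, 91.9, 74.6, 65.7 and 79.8 in MC and 81.1, 122, 79.7 and 88.6 in DMC. It was highest in WT 3, and the groups overlapped, with log2 differences of -0.03, -0.09 and 0.15. Tgfbr2, its receptor, ranged over 663 to 1299 in WT and 806 to 1710.5 in the others. Igfbp3, an insulin-like growth factor carrier, was 483, 333, 566 and 434 in WT, 1037, 573, 549 and 446 in DC, 269.6, 425, 723 and 598 in MC and 556, 683, 523 and 646 in DMC, without separation.

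Igfbp5, a related carrier made by fibroblasts and smooth muscle (ENSMUSG00000026185.8, chromosome 1, 72857932 to 72874884), was the 1 member among the 5 smallest p in each of the 3 comparisons with WT, without passing the adjusted test in any. It was 534, 659, 901 and 1149 in WT, 2135, 1073, 1584 and 1160.0 in DC, 1208, 1309.6, 1403 and 1726 in MC and 1263, 1661, 1211 and 2106 in DMC. Every MC and every DMC library lay above every WT library, and in DC only DC 2 reached below the highest, WT 4. The means were 811 ± 272 in WT and 1560.4 ± 416 in DMC. The log2 difference was 0.88 ± 0.25 in DC, 0.85 ± 0.25 in MC and 0.97 ± 0.25 in DMC, with adjusted p of 0.181, 0.144 and 0.107 (limma). The 3 differences share the WT libraries, in which WT 1 and WT 2 were low. In DMC against WT, Pdgfra and Igfbp5 were the 2 members without overlap on the higher side, against 5.19% of all genes.

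Fibroblast and contractile genes were then set against each other within each library, as the mean log2(normalized count + 1) of 18 fibroblast genes and of the 7 contractile genes. The 18 were the identity, adventitial and transcription factor genes, with Cxcl12 in place of Ly6c1. The fibroblast level was 7.60, 7.64, 7.67 and 7.74 in WT 1 to 4, 8.85, 8.11, 8.13 and 7.63 in DC, 7.78, 7.40, 7.96 and 8.32 in MC and 8.06, 7.91, 7.59 and 8.09 in DMC. The 4 WT mice lay within a narrow range on this mean (SD 0.06), and DC 1 was the highest library. The full roles, with Ly6c1 and without Cxcl12, spread more in WT, with SDs of 0.21 (identity), 0.13 (adventitial) and 0.25 (transcription factors). WT 1 was the lowest WT library for identity (7.74) and the highest for the factors (5.82). The 18 genes include S100a4, which was not tested. Within DC, DC 1 was the highest library for 15 of the 18 genes and DC 4 the lowest for 16, and MC 4 was the highest MC library for 13. The median log2 difference of the 17 tested genes was 0.57 in DC, 0.21 in MC and 0.24 in DMC, with 15, 12 and 14 above 0. These medians were 0.30 without DC 1, 0.12 without MC 4 (0.38 without MC 2) and 0.13 without DMC 4. The contractile level was 7.28, 6.01, 5.66 and 5.97 in WT, 7.20, 6.20, 7.57 and 5.56 in DC, 5.28, 5.97, 6.60 and 7.23 in MC and 8.33, 6.84, 6.21 and 7.01 in DMC, and here the WT libraries spread widely too. The fibroblast level less the contractile level averaged 1.43 ± 0.76 for WT (SD, n = 4 here and for the others), 1.55 ± 0.68 for DC, 1.59 ± 0.62 for MC and 0.81 ± 0.74 for DMC. DMC was thus 0.63 lower than WT, 0.84 of the pooled SD, and 0.78 lower than MC, 1.15 of the pooled SD. Without DMC 1 the differences were -0.26 and -0.42. That from WT was -0.996 without WT 1 and -0.24 without WT 2 and WT 3, and that from MC was -0.48 without MC 1. DC and MC differed from WT by 0.11 and 0.16. WT 1 (0.32) and DMC 1 (-0.28) had the lowest differences, and DMC 1 was also the library with the highest adipocyte level (9.56), whose part was not tested.

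**Figure D5:**
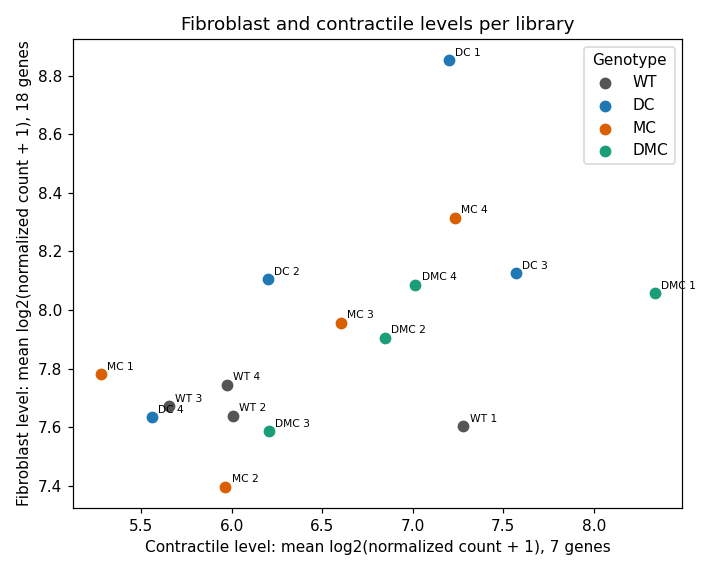
Each point is 1 library, with its contractile level (mean of 7 genes) on the x axis and its fibroblast level (mean of 18 genes) on the y axis, both as mean log2(normalized count + 1). The WT libraries lie between 7.60 and 7.74 on the y axis and between 5.66 and 7.28 on the x axis, and DC 1 (top) and DMC 1 (right) lie at the edges.

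Comparing the deletions with each other, limma called no member in MC against DC, DMC against DC or DMC against MC, where it called 1.37%, 0.534% and 0.00703% of all genes. At an unadjusted p under 0.05 there were 5, 3 and 0 members, against 13.7%, 13.2% and 5.57% of all genes. edgeR called none (1.26%, 0.499% and 0.00703% of all genes). DESeq2 called Cspg4 and Pdgfa in MC against DC (3.52% of all genes). It called no member in the others, where its share of all genes is not given here. MC lay below DC for 25 of the 34 members, with a median log2 difference of -0.34, and above it for 9, against 50% of all genes. That median was -0.08 without DC 1, -0.15 without MC 1 and -0.16 without MC 2. Genes of other cell types lay further apart between MC and DC, or the other way. All 8 adipocyte genes lay below DC (median -1.80), and all 7 ductal and all 8 gastric gland genes above it (medians 0.28 and 3.92). Their part in the shift of the members was not tested. The 5 smallest p in that comparison belonged to Pdgfa (0.75 ± 0.20, adjusted p = 0.0789), Cspg4 (given with its values), Pdgfb (0.77 ± 0.27, 0.199), Mfap4 (-0.78 ± 0.33, 0.315) and Pdpn (-0.86 ± 0.39, 0.341). Without DC 1 the difference of Pdpn was -0.45 and that of Mfap4 -0.51. Pdgfa and Pdgfb (higher) and Cspg4 (lower) did not overlap between MC and DC, against 4.65% of genes on the higher side and 4.29% on the lower.

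In DMC against MC, which asks what the Daxx deletion adds to that of Men1, no difference of a member was determined. The 7 contractile genes had a median of 0.72, all 7 above 0 against 51.1% of all genes, and the 17 tested fibroblast genes a median of 0.01. The contractile median was 0.41 without DMC 1 and 1.08 without DMC 3. Adipocyte and mesothelial genes lay the same way, 8 of 8 with a median of 1.42 and 9 of 10 with a median of 0.58, of which 5 did not overlap between the groups, and their part was not tested. No group of a member was without overlap, against 2.14% and 1.86% of all genes on the higher and lower side. The smallest p in the comparison belonged to Myl9 (0.68 ± 0.37), Des (0.69 ± 0.39), Cspg4 (0.43 ± 0.24), Myh11 (0.81 ± 0.46) and Pdgfa (-0.32 ± 0.20), with adjusted p of 0.934 or more. Without DMC 1 the differences of Myl9, Myh11, Des and Pdgfa were 0.44, 0.41, 0.29 and -0.18. That of Pdgfa was -0.49 without DMC 3, and that of Cspg4 was 0.27 without MC 1 and 0.23 without DMC 2 and DMC 4. In DMC against DC the smallest p belonged to Mfap5 (-0.67 ± 0.22, adjusted p = 0.199), Mfap4 (-0.77 ± 0.33, 0.336), Pdgfa (0.42 ± 0.20, 0.371), Tcf4 (-0.20 ± 0.11, 0.468) and Pi16 (-0.45 ± 0.26, 0.485), and the groups overlapped for every member, against 3.55% and 2.8% of genes. Without DC 1, Mfap4 was -0.50 and Tcf4 -0.12, and without DC 4, Tcf4 was -0.32. Without DMC 3, Mfap4 was -0.50 and Pdgfa 0.26, and without DMC 2 and DMC 4, Mfap4 was -1.28 and Pi16 -0.83.

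Whether the Daxx deletion acted alike with and without Men1 was tested as the difference of DMC less MC and DC less WT. No member passed by limma, as for all genes tested (0%), and edgeR (0% of all genes) and DESeq2 called none. The share of all genes that DESeq2 called in this test is not given here. At an unadjusted p under 0.05 there were 4 members, all negative, against 4.61% of all genes on that side. They were among the adventitial and carrier genes: Mfap5 (-1.18 ± 0.31, adjusted p = 0.385), Mfap4 (-1.45 ± 0.47, 0.475), Pi16 (-0.88 ± 0.37, 0.581) and Igfbp5 (-0.76 ± 0.36, 0.613), followed by Ly6c1 (-0.59 ± 0.28, 0.625), which was -0.39 without DMC 3. All 6 adventitial genes had a negative value, with a median of -0.74, against 12 of the 34 members with a positive one (52.1% of all genes) and a median of -0.26. This was not particular to them. Of 23 other fibroblast and stellate genes, 20 were negative and 3 positive (median -0.76). Of 22 other transforming and platelet-derived growth factor pathway genes, 20 were negative and 2 positive (median -0.49). All 4 lymphatic genes were negative (median -0.60), and all 9 B and T cell genes positive (median 1.92). The 7 contractile genes had a median of 0.38, which was -0.08 without DMC 1. The value of a member in this test holds its difference in DC less WT, so the 2 are not separate evidence.

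Other genes of the same pathways were read from lists chosen by function, with earlier results of these data known. Their shares are descriptions and not independent support for the members. Of 23 other fibroblast and stellate genes tested, limma called 1, Cygb, the globin of stellate cells, in MC against WT. It was 233, 249.5, 236 and 243 normalized counts in WT, 629, 334, 451 and 353 in DC, 496, 413, 549.8 and 675 in MC and 331, 468, 299 and 519.9 in DMC. Every library of the 3 deletion groups lay above every WT library. The log2 difference was 1.12 in MC, with an adjusted p of 0.0236, 0.83 in DC (0.148) and 0.71 in DMC (0.164). MC differed from DC by 0.30 (adjusted p = 0.58, limma), so a difference between the deletions was not shown. The 23 genes had medians of 0.73, 0.55 and 0.42 in DC, MC and DMC, with 21, 22 and 21 above 0. None of 22 other smooth muscle genes passed, with medians of 0.24, 0.05 and 0.39 and 17, 13 and 21 above 0. None of 22 other genes of the transforming and platelet-derived growth factor pathways passed (medians 0.36, 0.22 and 0.12). Nor did any of 8 other insulin-like growth factor genes (medians 0.17, 0.39 and 0.30, with 6, 7 and 4 above 0). None passed either among 6 genes listed with serum response factor (medians 0.07, -0.08 and -0.11, with 6, 2 and 1 above 0). Those 6 included Srf and the receptor gene Notch3. Myocd, which encodes myocardin, was left out by the filter on low values and not tested, at group means of 3.11 to 6.53 normalized counts. An unadjusted p under 0.05 was reached by 11.7%, 12.7% and 12.5% of all genes in DC, MC and DMC against WT. Of the 23 fibroblast and stellate genes, 13 higher and 2 lower reached it in DC, 10 higher and 0 lower in MC and 6 higher and 0 lower in DMC. Of the 22 smooth muscle genes, 5 higher and 0 lower reached it in DC, 1 higher and 0 lower in MC and 1 higher and 0 lower in DMC. Of the 22 growth factor pathway genes, 9 higher and 1 lower reached it in DC, 5 higher and 0 lower in MC and 2 higher and 1 lower in DMC. Among the 8 insulin-like growth factor genes it was 2, 3 and 3, all higher. Among the 6 listed with serum response factor it was 1 higher in DC, 0 in MC and 1 lower in DMC.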

How the data were processed

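Total RNA of 16 pancreases was made into stranded libraries, per the labels' protocols. The deposited table holds, per gene and library, a signal that the authors made from read counts divided by DESeq2 size factors, after STAR 2.6.0b alignment to GRCm38, per the submitters' processing notes and the values. Neither the read counter nor its strand setting is given in the sources used here. Low values were whole multiples of 1 read (100% within 0.01 reads), so reads were recovered for edgeR and DESeq2.

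The comparisons used limma 3.58.1 in R 4.3.3 on log2(normalized count + 1), which understates the change of low genes, in 1 fit of all 16 libraries with a term per genotype. Genes with at least 10 normalized counts in at least 4 libraries entered, p-values were adjusted over all 14220, and the threshold was 0.05. edgeR 4.0.16 and DESeq2 1.42.0 were alternatives, with other scalings, pseudocounts, filters, quality weights, a replicate block and left-out libraries. The fit was tested on simulated data.

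The labels state independent biological replicates, and libraries of one group differed beyond counting noise. The members and lists were chosen with earlier results of these data known. Of the members, 23 chosen by name and the 5 with the smallest p in each comparison are given with values, the others by range. Of companion genes, those past the threshold are named (at most 3 per list). The levels of gene lists are descriptions without a test. The 95% intervals are those of the limma fit, and floors of 3 reads cover counting error only. Promoter windows are RefSeq's (GRCm38.p6), and gene positions are GENCODE's (GRCm38). An exon of 8 members overlaps another gene.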

Additional observations from a re-analysis of the deposited data

Results flagged for a closer look

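In 152 groups of 4 libraries, each a gene or a level in a genotype, the gap between the highest or lowest library and its neighbour was compared with the whole range of the group. It exceeded Dixon's 95% critical share of that range in 5, and chance alone marks about 1 in 20 groups. On the log2(normalized count + 1) scale, DMC 4 lay below the other DMC libraries for S100a4, at 1.90. DC 4 lay below the other DC libraries for Pi16, at 8.98, which is 503 normalized counts against 744 to 753. DMC 3 lay below the other DMC libraries for Ly6c1, at 7.26, and for Rgs5, at 9.95. DMC 2 lay above the other DMC libraries for Cxcl12, at 8.99.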

How the results depend on the processing

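The count of members past the threshold, 0 in each comparison as reported, changed with some alternatives. DESeq2 called 4 in DC against WT, 2 in MC against WT, 1 in DMC against WT and 2 in MC against DC. Weighting libraries by quality gave 2 in DC against WT (Mfap4 and Mfap5), 1 in MC against WT (Ly6c1), 2 in DMC against WT (Igfbp5 and Pdgfra), 1 in DMC against DC (Mfap5) and 2 in MC against DC (Pdgfa and Pdgfb). These weights called 1.24%, 1.86%, 1.72%, 11.6% and 7.26% of all genes in the same order. Quantile scaling gave 1 in MC against DC (Cspg4, with 1.54% of all genes), and a fit of the compared groups alone gave 1 (Pdgfa, 1.88%). Leaving out 1 library gave 0 to 1 in MC against WT, where Pdgfa passed without WT 4 (1.1% of all genes) and Ly6c1 without DMC 3 (0.937%), and 0 to 1 in MC against DC, where Pdgfa passed without DMC 3 (1.51%). In the other comparisons it gave 0 to 0. The cause of these changes was not tested. The replicate block gave 0 members in each comparison, and it lowered the calls over all genes from 111 to 46 in MC against WT. Same-numbered libraries did not deviate together (r of -0.371 to 0.384, above 0.1 in 11 of 24 pairs), and 1 of 16 libraries correlated best with its own number, so the numbers were not taken as pairs. No direction of a gene named by its p reversed. The difference of fibroblast and contractile levels between groups moved by less than 1 SD under each alternative. As single libraries were left out its sign changed in DC against WT (-0.26 to 0.44), MC against WT (-0.21 to 0.35) and MC against DC (-0.28 to 0.22). Depth limits S100a4, Twist1 and Actg2, whose lowest values lie at or under 3 reads.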
